A study of Mus musculus with 9 samples.

Results

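The genes described here are 10 established targets of the transcription factor p53, namely Mdm2, Ccng1, Trp53inp1, Sesn1, Perp, Zmat3, Phlda3, Eda2r, Ckap2 and Gtse1. Each was read by 1 probe set that names a single gene, and together they make up 10 of the 19935 genes measured. The cells were NIH 3T3, a mouse fibroblast line, that stably carried an shRNA against Net (gene Elk3), an shRNA against Sap-1 (gene Elk4) or, as control, the pLKO.1 vector, with 3 biological replicates and 1 Affymetrix Mouse Gene 1.0 ST array each. All 9 arrays came from cells that had been left for 2 hours on fibronectin, starved of serum overnight and then given bovine serum for 1 hour, at 10% by the sample labels and 20% by the series description. The labels name no inducer of p53, and they state neither the shRNA sequences, whether the control plasmid carries an shRNA, nor how many independently transduced lines stand behind a group.

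The protein p53 is held low in unstressed cells by Mdm2, a ubiquitin ligase that p53 itself induces, so the pair form a negative feedback loop. When DNA damage or other stress stabilises p53, it binds a response element made of paired half-sites and raises genes of growth arrest, apoptosis, DNA repair and metabolism. Fibroblasts of the NIH 3T3 line are known to lack the Cdkn2a locus, whose Arf product restrains Mdm2. Net and Sap-1 belong to the ETS family and act with serum response factor at genes that serum induces. The comparisons ask how transcript levels of these p53 targets differ in cells that carry either shRNA.

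Values are log2 levels after RMA, so a difference of 1 is a doubling, and array medians ran from 7.47 to 7.54. Elk3 averaged 11.08 in Net shRNA cultures and 11.51 in control cells (difference -0.42, SE 0.04, limma adjusted p = 1.1e-05), and Elk4 was also lower there (-0.44, adjusted p = 2.3e-05), so the Net shRNA group had less of both transcripts. Elk4 averaged 9.53 in Sap-1 shRNA cultures and 11.07 in control cells (difference -1.54, SE 0.04, adjusted p = 9.2e-10), and Elk3 was lower there as well (-0.12, SE 0.04, adjusted p = 0.023). All 10 fibroblast markers examined had group means of 10.95 or more, although the receptor gene Pdgfra differed by -1.74 between Sap-1 shRNA and control cells. The macrophage, epithelial and endothelial lists had medians of 6.62 to 7.48 in the 3 groups, and single members differed, such as Tek at 1.84 higher and Cdh1 at 0.38 higher in Net shRNA than in control cells. In Sap-1 shRNA cells Emcn was 0.89 and Cdh5 0.84 higher than in control cells, and Tek was 0.3 lower. The table holds no detection calls, and precision is limited by how many arrays there are. In such bulk RNA, fewer cells of a type and less RNA per cell cannot be told apart.

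Most of the 10 genes were higher in cells with either shRNA than in control cells. In Net shRNA cultures 8 of 10 rose, Sesn1 fell and Zmat3 did not pass the test, with a median difference of 0.61 over the 10 genes against 0.00 over all genes. Of all genes tested, 23.6% were called in that comparison, 13.4% as higher and 10.2% as lower. In Sap-1 shRNA cultures 7 of 10 rose, Sesn1 fell, and Perp and Zmat3 did not pass, with a median of 0.49 against -0.02 over all genes, where 29.7% of genes were called, 15.8% as higher and 13.9% as lower. Arrays of the groups did not overlap for 9 of 10 genes in Net shRNA against control cells, where 34.3% of all genes did not, and for 9 of 10 in Sap-1 shRNA against control cells, where 41% did not. Both comparisons use the same 3 control arrays, so they are not independent of each other. The members were chosen with earlier results of these data known, so their shares and medians beside those of all genes carry no test. Listed levels at least 1.5-fold apart were called for 5 of the 10 genes in Net shRNA cultures (2.56% of all genes). Perp is among these, although its control level is not shown to be above background. In Sap-1 shRNA cultures they were called for 3 of the 10 (4.46% of all genes).

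**Figure D1:**
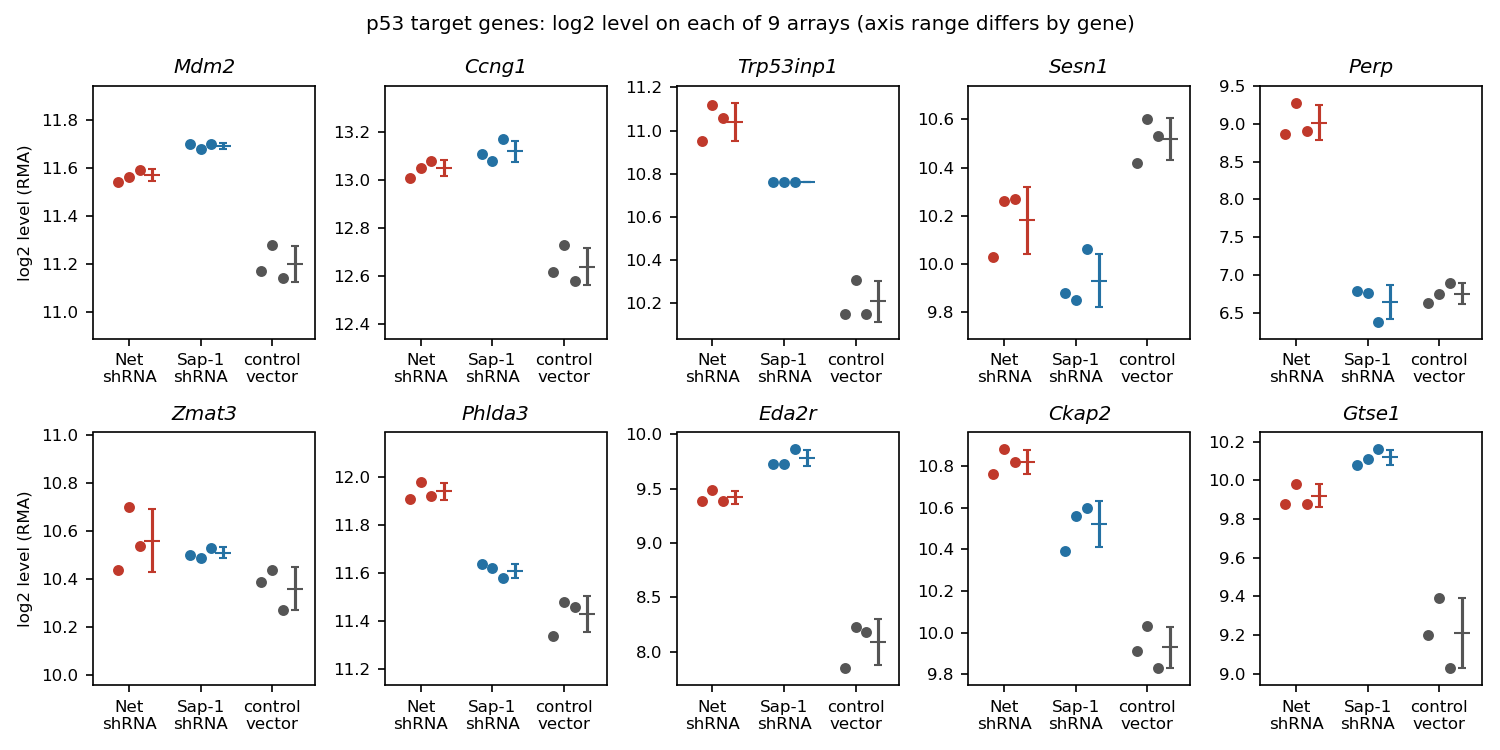
Log2 level (RMA) of the 10 p53 target genes on each array, for Net shRNA, Sap-1 shRNA and control vector cells (points: 3 arrays per group; bar with whiskers: mean ± SD). Sesn1 is lower with either shRNA, Perp is high only on the Net shRNA arrays (8.87 to 9.28), and Eda2r is above 9 with either shRNA and at most 8.23 in control cells.

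Mdm2 and Ccng1 belong to the feedback arm of the pathway: Mdm2 marks p53 for degradation, and cyclin G1, the product of Ccng1, recruits the phosphatase PP2A to Mdm2. Mdm2 stood at 11.54, 11.56 and 11.59 in Net shRNA cultures, at 11.70, 11.68 and 11.70 in Sap-1 shRNA cultures and at 11.17, 11.28 and 11.14 in control cells. Every array of either knockdown was above every control array. Mdm2 rose by 0.37 in Net shRNA cultures (SE 0.04, limma adjusted p = 0.00011) and by 0.50 in Sap-1 shRNA cultures (SE 0.04, adjusted p = 6.8e-06), which is 1.29-fold and 1.41-fold. Ccng1 stood at 13.01, 13.05 and 13.08 in Net shRNA cultures, at 13.11, 13.08 and 13.17 in Sap-1 shRNA cultures and at 12.62, 12.73 and 12.58 in control cells, again without overlap with control. It rose by 0.41 (SE 0.05, adjusted p = 0.00011) in Net shRNA cultures and by 0.48 (SE 0.05, adjusted p = 1.9e-05) in Sap-1 shRNA cultures.

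The promoters of both feedback genes are shown because they hold a match to the p53 half-site in the 250 bases before the start. They were taken from RefSeq (GRCm38.p6), whose promoter table held 7 of the 10 genes in 9 windows (Perp, Trp53inp1 and Zmat3 were not matched). In all, 6 motifs were searched on both strands. They were the p53 half-site by its consensus, the CArG box bound by serum response factor, and 4 short words. The word TTTGAA is a form of the cell cycle gene homology region, an element of late cell cycle promoters, and so is its relative TTTAAA. The box CCAAT is bound by the factor NF-Y and reads ATTGG where it lies on the opposite strand. The ETS core CCGGAA was counted and is not marked in the sequences. Capitals mark matches to the other short words and to the half-site, and no marked motif overlaps another. The Mdm2 window is chr10:117710759-117711008 and the Ccng1 window chr11:40755287-40755536, both on the minus strand and written along the gene.
Mdm2: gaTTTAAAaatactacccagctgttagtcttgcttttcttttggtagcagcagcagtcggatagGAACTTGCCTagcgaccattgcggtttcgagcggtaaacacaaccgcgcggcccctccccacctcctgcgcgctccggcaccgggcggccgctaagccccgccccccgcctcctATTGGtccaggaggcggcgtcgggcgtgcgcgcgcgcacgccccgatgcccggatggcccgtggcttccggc
Ccng1: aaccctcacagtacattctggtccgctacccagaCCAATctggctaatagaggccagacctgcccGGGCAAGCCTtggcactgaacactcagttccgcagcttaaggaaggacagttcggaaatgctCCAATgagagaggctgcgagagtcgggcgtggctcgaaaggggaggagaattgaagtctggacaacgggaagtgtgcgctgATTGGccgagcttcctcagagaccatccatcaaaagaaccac
In these windows the half-site lies 186 to 177 bases before the start of Mdm2 and 185 to 176 before that of Ccng1. Over all members it occurred in 4 of 9 windows, against 7.13% of 32851 windows of the same length in the table. CCAAT occurred in 8 of 9 windows (33.8% of all windows), TTTAAA in 3 (12.1%), CCGGAA in 3 (12%), TTTGAA in 1 (16%) and the CArG box in 0 (1.47%). The motifs were chosen after the promoters were seen, so the member counts beside the shares of all windows carry no test. The 9 windows belong to 7 genes, so they are not independent. A gene with more than 1 window can count more than once in a total, as Gtse1 does for the ETS core. A match describes letters and not binding, and response elements in introns lie outside these windows.

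Trp53inp1 and Sesn1, which act in the stress and metabolic arm, moved in opposite directions. Trp53inp1, whose nuclear protein promotes p53 phosphorylation and autophagy, stood at 10.95, 11.12 and 11.06 in Net shRNA cultures, at 10.76 on each of the 3 arrays of Sap-1 shRNA cultures and at 10.15, 10.31 and 10.15 in control cells. The groups are cleanly ordered, with Net shRNA highest. It rose by 0.84 in Net shRNA cultures (SE 0.06, limma adjusted p = 2e-06) and by 0.55 in Sap-1 shRNA cultures (SE 0.06, adjusted p = 2.4e-05). The 3 Sap-1 values are identical as deposited, which was so for 287 genes (1.44%) in that group, and the SE comes from the pooled, moderated spread of all groups.

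Sesn1 encodes sestrin 1, a stress protein that restrains the growth kinase complex TORC1, and it was the sole member that fell. It stood at 10.03, 10.26 and 10.27 in Net shRNA cultures, at 9.88, 9.85 and 10.06 in Sap-1 shRNA cultures and at 10.42, 10.60 and 10.53 in control cells. The control arrays lie above all others, while the ranges of both knockdowns overlap. Sesn1 fell by 0.33 in Net shRNA cultures (SE 0.08, limma adjusted p = 0.0094) and by 0.58 in Sap-1 shRNA cultures (SE 0.08, adjusted p = 0.00016). Its paralog Sesn3, a sestrin known as a FoxO target, went opposite ways, at 10.88 in Net shRNA, 9.25 in Sap-1 shRNA and 10.17 in control cells, a rise of 0.72 (SE 0.08, adjusted p = 6.8e-05) and a fall of 0.91 (SE 0.08, adjusted p = 5.6e-06).
The window before the downstream of the annotated Sesn1 starts, at chr10:41887189-41887438 on the plus strand, also holds a half-site match, 173 to 164 bases before the start.
Sesn1: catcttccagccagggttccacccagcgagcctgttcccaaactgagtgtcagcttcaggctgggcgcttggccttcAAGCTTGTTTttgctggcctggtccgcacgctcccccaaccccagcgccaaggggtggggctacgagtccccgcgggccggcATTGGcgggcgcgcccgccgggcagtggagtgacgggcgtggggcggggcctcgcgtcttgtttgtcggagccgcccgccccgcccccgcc
It is shown because Sesn1, the gene that fell, holds a half-site match, as do Mdm2, Ccng1 and Ckap2, which rose. Phlda3, Eda2r and Gtse1 also rose and hold no half-site match in their windows. Of 13 measured sestrin and TORC1 related genes, 5 rose and 1 fell in Net shRNA cultures (median 0.09). With the median of chromosomal neighbours taken off, 3 rose there. In Sap-1 shRNA cultures 2 rose and 4 fell (median -0.03), and 1 rose without Sap-1 shRNA replicate 2 or with the neighbours' median taken off. Beside these counts, 13.4% of all genes rose and 10.2% fell in Net shRNA cultures. The shares in Sap-1 shRNA cultures were 15.8% and 13.9%. Ddit4, a TORC1 inhibitor gene that also responds to hypoxia, rose by 0.47 in Net shRNA cultures (SE 0.04, adjusted p = 2.5e-05) and by 0.90 in Sap-1 shRNA cultures (SE 0.04, adjusted p = 7.2e-08). Tsc1, whose product also restrains TORC1, fell by 0.33 in Sap-1 shRNA cultures (SE 0.05, adjusted p = 0.00036) and lay at 0.00 in Net shRNA cultures (adjusted p = 0.98).

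Perp and Eda2r had the widest range of group means. Perp encodes a tetraspan membrane protein of the PMP22 family that takes part in p53-dependent apoptosis and in desmosomes of epithelia. It stood at 8.87, 9.28 and 8.91 in Net shRNA cultures, at 6.78, 6.76 and 6.38 in Sap-1 shRNA cultures and at 6.62, 6.74 and 6.89 in control cells. The Net shRNA arrays stand far above the other 6, which overlap. Perp rose by 2.27 in Net shRNA cultures (SE 0.13, limma adjusted p = 4.3e-07). Its levels in Sap-1 shRNA cultures and in control cells lie below the array medians, and without detection calls they are not shown to be above background, so its differences are given as differences of listed levels and not as folds. In Sap-1 shRNA cultures its difference was -0.11 (95% interval -0.39 to 0.18, adjusted p = 0.6). This interval covers listed levels and cannot bound a change in the Perp transcript if both groups read background. Of 8 epithelial markers 2 rose in Net shRNA cultures (Cdh1 by 0.38 and Krt14 by 0.58), where 13.4% of all genes rose. Krt14 also rose in Sap-1 shRNA cultures, by 0.48 (SE 0.13, adjusted p = 0.019), and Cdh1 did not pass there. In control cells Cdh1 averaged 7.4 and Krt14 7.22, also below the array medians. The summed log2 level of the 8 markers ran from 58.4 to 59.5 in Net shRNA cultures. It ran from 57.6 to 58.2 in Sap-1 shRNA cultures and from 57.6 to 58.6 in control cells. The part of the epithelial markers in the rise of Perp was not tested. Other desmosome genes were mostly not called: of 12 measured, 1 rose and none fell in Net shRNA cultures (3 of the 4 plakophilin genes among the 11 that did not pass), namely Pkp4 by 0.65 (SE 0.05, adjusted p = 6.2e-06). In Sap-1 shRNA cultures Pkp2 alone rose, by 1.48 (SE 0.07, adjusted p = 4.1e-08). Over all genes, 23.6% were called either way in Net shRNA cultures and 29.7% in Sap-1 shRNA cultures. With the median of chromosomal neighbours taken off, 3 desmosome genes were called higher and 2 lower in Sap-1 shRNA cultures, and 1 lower in Net shRNA cultures.

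Eda2r encodes a receptor of the TNF family for the A2 form of ectodysplasin. It stood at 9.39, 9.49 and 9.39 in Net shRNA cultures, at 9.73, 9.73 and 9.86 in Sap-1 shRNA cultures and at 7.85, 8.23 and 8.18 in control cells. The 3 groups do not overlap, and control is lowest. Eda2r rose by 1.34 in Net shRNA cultures (SE 0.09, limma adjusted p = 1.6e-06) and by 1.69 in Sap-1 shRNA cultures (SE 0.09, adjusted p = 1.1e-07), 2.52-fold and 3.23-fold, the largest difference among the members in Sap-1 shRNA cultures. Its ligand gene Eda lay at -0.06 and -0.12 (adjusted p = 0.66 and 0.23 in Net and in Sap-1 shRNA cultures), a gene chosen after its values were seen. Of 13 ectodysplasin and TNF receptor family genes, 2 rose and 4 fell in Net shRNA cultures, and 3 rose and 3 fell in Sap-1 shRNA cultures. Among all genes 13.4% rose and 10.2% fell in Net shRNA cultures, and 15.8% rose and 13.9% fell in Sap-1 shRNA cultures. The 2 that rose with the Net shRNA became 1 without control replicate 1 or 2 or Net shRNA replicate 2 or 3 and with only the 6 arrays compared. The 4 that fell became 2 without any 1 control array or Net shRNA replicate 3 and with the neighbours' median taken off. Of this list, Fas, the death receptor gene and itself a p53 target, rose by 0.40 in Net shRNA cultures (SE 0.06, adjusted p = 0.00037) and fell by 0.31 in Sap-1 shRNA cultures (SE 0.06, adjusted p = 0.0014). Tnfrsf10b, the gene of the mouse TRAIL receptor, rose by 0.57 in Sap-1 shRNA cultures (SE 0.05, adjusted p = 1.1e-05) and by 0.19 in Net shRNA cultures (SE 0.05, adjusted p = 0.022).

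Phlda3 and Zmat3 belong to the arm that restrains growth and survival. Phlda3 encodes a small pleckstrin homology protein that competes with the kinase Akt for membrane lipids. It stood at 11.91, 11.98 and 11.92 in Net shRNA cultures, at 11.64, 11.62 and 11.58 in Sap-1 shRNA cultures and at 11.34, 11.48 and 11.46 in control cells, without overlap between any groups. Phlda3 rose by 0.51 in Net shRNA cultures (SE 0.05, limma adjusted p = 1.7e-05) and by 0.19 in Sap-1 shRNA cultures (SE 0.05, adjusted p = 0.0097). Zmat3, the gene of a zinc finger RNA-binding protein, stood at 10.44, 10.70 and 10.54 in Net shRNA cultures, at 10.50, 10.49 and 10.53 in Sap-1 shRNA cultures and at 10.39, 10.44 and 10.27 in control cells. The Net shRNA and control ranges of Zmat3 touch. Its difference was 0.19 in Net shRNA cultures (95% interval 0.05 to 0.34, adjusted p = 0.056) and 0.14 in Sap-1 shRNA cultures (95% interval 0.00 to 0.29, adjusted p = 0.14). Without Net shRNA replicate 1 the difference in Net shRNA cultures was 0.25 and passed (adjusted p = 0.0161).

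Ckap2 and Gtse1 are p53 targets of the late cell cycle: Ckap2 encodes a spindle protein, and the product of Gtse1 binds microtubules and p53 and is most abundant in G2. Ckap2 stood at 10.76, 10.88 and 10.82 in Net shRNA cultures, at 10.39, 10.56 and 10.60 in Sap-1 shRNA cultures and at 9.91, 10.03 and 9.83 in control cells. It rose by 0.89 in Net shRNA cultures (SE 0.07, limma adjusted p = 3.5e-06) and by 0.59 in Sap-1 shRNA cultures (SE 0.07, adjusted p = 4e-05). Gtse1 stood at 9.88, 9.98 and 9.88 in Net shRNA cultures, at 10.08, 10.11 and 10.16 in Sap-1 shRNA cultures and at 9.20, 9.39 and 9.03 in control cells. It rose by 0.71 in Net shRNA cultures (SE 0.08, adjusted p = 6e-05) and by 0.91 in Sap-1 shRNA cultures (SE 0.08, adjusted p = 4.7e-06). For both genes the 3 groups do not overlap, with Net shRNA highest for Ckap2 and Sap-1 shRNA highest for Gtse1.

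Genes of G2 and mitosis that are not members were higher as well in part. Of 24 measured, 18 rose and none fell in Net shRNA cultures (median 0.25), and 9 rose and 3 fell in Sap-1 shRNA cultures (median 0.15). For comparison, 13.4% of all genes rose and 10.2% fell in Net shRNA cultures, and 15.8% and 13.9% in Sap-1 shRNA cultures. The list was chosen with earlier results known, so its counts carry no test. Aurkb, a mitotic kinase gene, rose by 0.51 (SE 0.05, limma adjusted p = 1.6e-05) and 0.36 (SE 0.05, adjusted p = 0.00013) in Net and in Sap-1 shRNA cultures, and Cdc20, the gene of an activator of the anaphase promoting complex, by 0.38 (SE 0.05) and 0.35 (SE 0.05). Birc5, the survivin gene, rose by 0.48 in Net shRNA cultures (SE 0.06) and the spindle midzone gene Prc1 by 0.38 in Sap-1 shRNA cultures (SE 0.05). The part of the cell cycle state in the rises of Ckap2 and Gtse1 was not tested.
The promoters of both genes are shown for the late cell cycle motifs they hold, at chr8:22185820-22186069 on the minus strand for Ckap2 and chr15:85859457-85859706 on the plus strand for Gtse1, with capitals as above.
Ckap2: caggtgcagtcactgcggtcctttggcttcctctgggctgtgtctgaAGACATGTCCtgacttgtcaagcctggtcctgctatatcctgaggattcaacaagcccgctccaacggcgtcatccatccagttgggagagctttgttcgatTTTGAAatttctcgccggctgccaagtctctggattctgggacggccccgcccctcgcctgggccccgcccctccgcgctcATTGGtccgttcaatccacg
Gtse1: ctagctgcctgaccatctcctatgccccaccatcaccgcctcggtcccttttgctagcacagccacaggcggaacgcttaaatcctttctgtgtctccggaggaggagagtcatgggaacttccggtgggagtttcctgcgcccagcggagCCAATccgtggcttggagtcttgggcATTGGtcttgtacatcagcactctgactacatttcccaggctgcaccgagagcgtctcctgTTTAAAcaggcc
In Ckap2 a p53 half-site lies 203 to 194 bases, TTTGAA 101 to 96 bases and CCAAT 20 to 16 bases before the start. In Gtse1 CCAAT lies 99 to 95 and, on the other strand, 73 to 69 bases before the start, and TTTAAA 12 to 7 bases before it. The second RefSeq window of Gtse1 also holds TTTAAA and CCAAT.

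**Figure D2:**
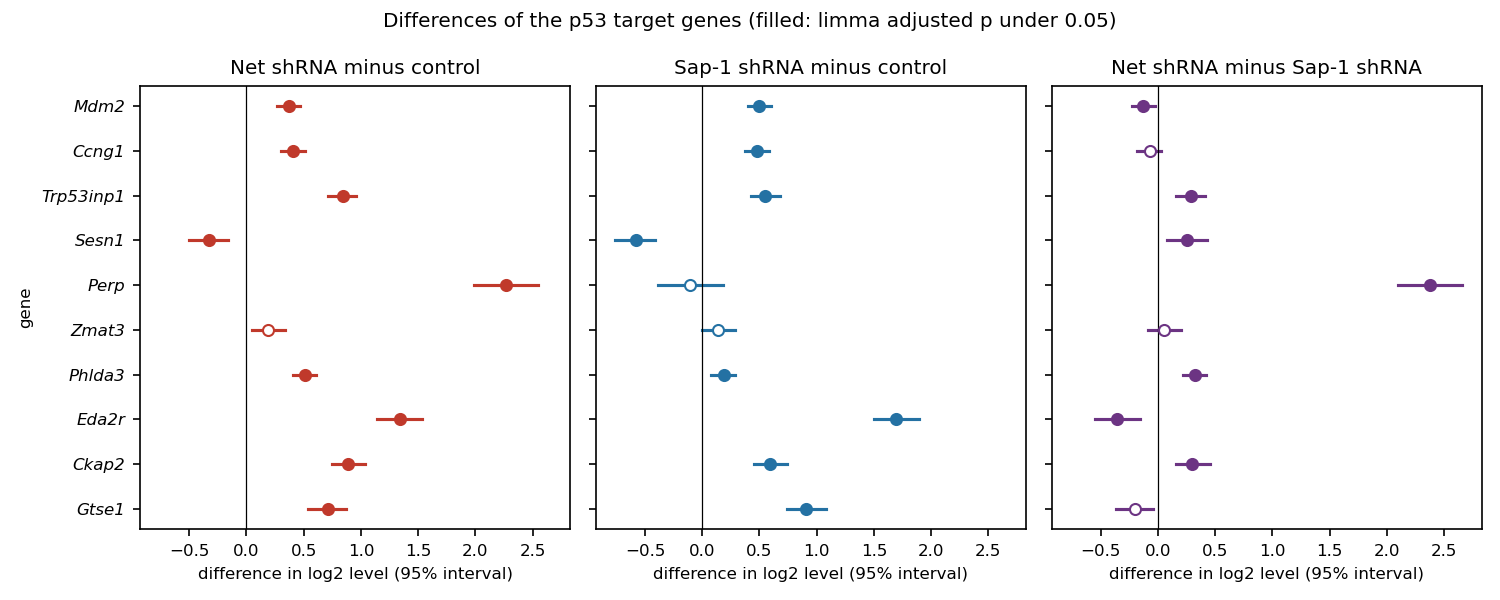
Difference in log2 level of each p53 target gene in Net shRNA minus control, Sap-1 shRNA minus control and Net shRNA minus Sap-1 shRNA (point: limma estimate; line: 95% interval; filled: adjusted p under 0.05). Perp differs most between the knockdowns, by 2.38, and the other 9 genes lie between -0.36 and 0.32 in that comparison.

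The knockdowns were also compared directly, Net minus Sap-1. Of the 10 genes, 5 were called higher and 2 lower with the Net shRNA, beside 14.2% and 13.3% of all genes and 27.5% in either direction, with a median difference of 0.15 against 0.02 over all genes. Perp was higher in Net shRNA cultures by 2.38 (SE 0.13, limma adjusted p = 1.2e-07), again against a level not shown to be above background. Perp was the 1 member called with listed levels at least 1.5-fold apart, as were 4.64% of all genes. The arrays did not overlap for 8 of 10 genes, against 37.4% of all genes. Phlda3 was higher by 0.32 (SE 0.05, adjusted p = 0.00029), Ckap2 by 0.30 (SE 0.07, adjusted p = 0.0048) and Trp53inp1 by 0.29 (SE 0.06, adjusted p = 0.0028). Eda2r was the lower with the Net shRNA, at -0.36 (SE 0.09, adjusted p = 0.01).
The calls of Sesn1 and Mdm2 were near the threshold. Sesn1 was 0.25 higher in Net shRNA cultures (SE 0.08, adjusted p = 0.032), and the call was lost without control replicate 3, Net shRNA replicate 2 or 3 or Sap-1 shRNA replicate 1 or 2 (0.21 to 0.25, adjusted p = 0.0503 to 0.122). It was also lost with only the 6 arrays compared (0.25, adjusted p = 0.0638) and with arrays centred on their medians (0.23, adjusted p = 0.0773). Mdm2 lay at -0.13 (SE 0.04, adjusted p = 0.0498), and the call was lost without control replicate 1 or any 1 of the 6 knockdown arrays (-0.14 to -0.12, adjusted p = 0.0558 to 0.122), and likewise after cyclic loess (adjusted p = 0.0539) and with every probe set tested (adjusted p = 0.0501). Gtse1, at -0.20 (95% interval -0.37 to -0.04, adjusted p = 0.073), passed without control replicate 2 (adjusted p = 0.0189) or control replicate 3 (adjusted p = 0.0254). It also passed with only the 6 arrays compared (adjusted p = 0.0127) and with dim probe sets left out (adjusted p = 0.039). Ccng1 and Zmat3 did not pass, with 95% intervals of -0.18 to 0.03 and -0.09 to 0.20.

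A wider list of p53 targets that are not members was called in both directions, with more genes higher than lower with either shRNA. Of 44 measured, 17 rose and 3 fell in Net shRNA cultures (median 0.11), where 13.4% of all genes rose and 10.2% fell. In Sap-1 shRNA cultures 19 rose and 9 fell (median 0.06), where 15.8% of all genes rose and 13.9% fell. This list too was chosen with earlier results known, so its counts carry no test. Cdkn1a and Bax, the classic arrest and apoptosis targets, were not analysed here, nor were Gdf15 and Gls2. In Net shRNA cultures the smallest adjusted p were those of Ephx1, an epoxide hydrolase gene (0.72, SE 0.05, limma adjusted p = 2.9e-06), Dcxr, a xylulose reductase gene (0.94, SE 0.07, adjusted p = 3.5e-06), and Sulf2, a heparan sulfatase gene (0.68, SE 0.06, adjusted p = 1.4e-05). In Sap-1 shRNA cultures they were those of Ddit4, the phospholipid transfer gene Pltp (0.85, SE 0.06, adjusted p = 1.3e-06) and the apoptosis-enhancing nuclease gene Aen (0.66, SE 0.05, adjusted p = 1.4e-06). Between the knockdowns 15 were higher and 11 lower in Net shRNA cultures, beside 14.2% and 13.3% of all genes. Fas was higher there by 0.71 (SE 0.06, adjusted p = 2.9e-06) and the autophagy gene Dram1 by 0.68 (SE 0.06, adjusted p = 6.9e-06). The peptide transporter gene Tap1, which interferon also induces, was higher by 0.68 (SE 0.06, adjusted p = 1e-05).

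Genes that act on p53 showed no common direction. Of 21 measured, 4 rose and 4 fell in Net shRNA cultures (median -0.05), and 3 rose and 6 fell in Sap-1 shRNA cultures (median 0.02). Over all genes, 13.4% rose and 10.2% fell in Net shRNA cultures, and 15.8% rose and 13.9% fell in Sap-1 shRNA cultures. The list was chosen with earlier results known, so these counts beside the shares carry no test. Trp53 itself was not analysed here. Mdm4, the relative of Mdm2 that blocks p53 activity, averaged 9.93 ± 0.085 in Net shRNA cultures, 9.72 ± 0.059 in Sap-1 shRNA cultures and 10.21 ± 0.075 in control cells (SD, n = 3). It fell by 0.28 (SE 0.06, limma adjusted p = 0.0039) in Net shRNA cultures and by 0.49 (SE 0.06, adjusted p = 5.8e-05) in Sap-1 shRNA cultures, where Mdm2 rose. Ppm1d, the gene of the phosphatase Wip1 that acts against p53 and is induced by it, rose by 0.43 in Net shRNA cultures (SE 0.05, adjusted p = 7.2e-05) and by 0.20 in Sap-1 shRNA cultures (SE 0.05, adjusted p = 0.0063). Chek1, a checkpoint kinase gene that rises in S phase, rose by 0.26 (SE 0.04, adjusted p = 0.00071) and 0.53 (SE 0.04, adjusted p = 2.4e-06) in Net and in Sap-1 shRNA cultures. The p53 kinase gene Hipk2 rose by 0.36 in Sap-1 shRNA cultures (SE 0.04, adjusted p = 3.2e-05). Cdkn2a lay at 7.49, 7.42 and 7.41 in Net shRNA, Sap-1 shRNA and control cells and did not pass in any comparison (adjusted p = 0.33 to 0.88). Since the line is known to lack this locus, these levels are read as background and say nothing about its regulation.

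**Figure D3:**
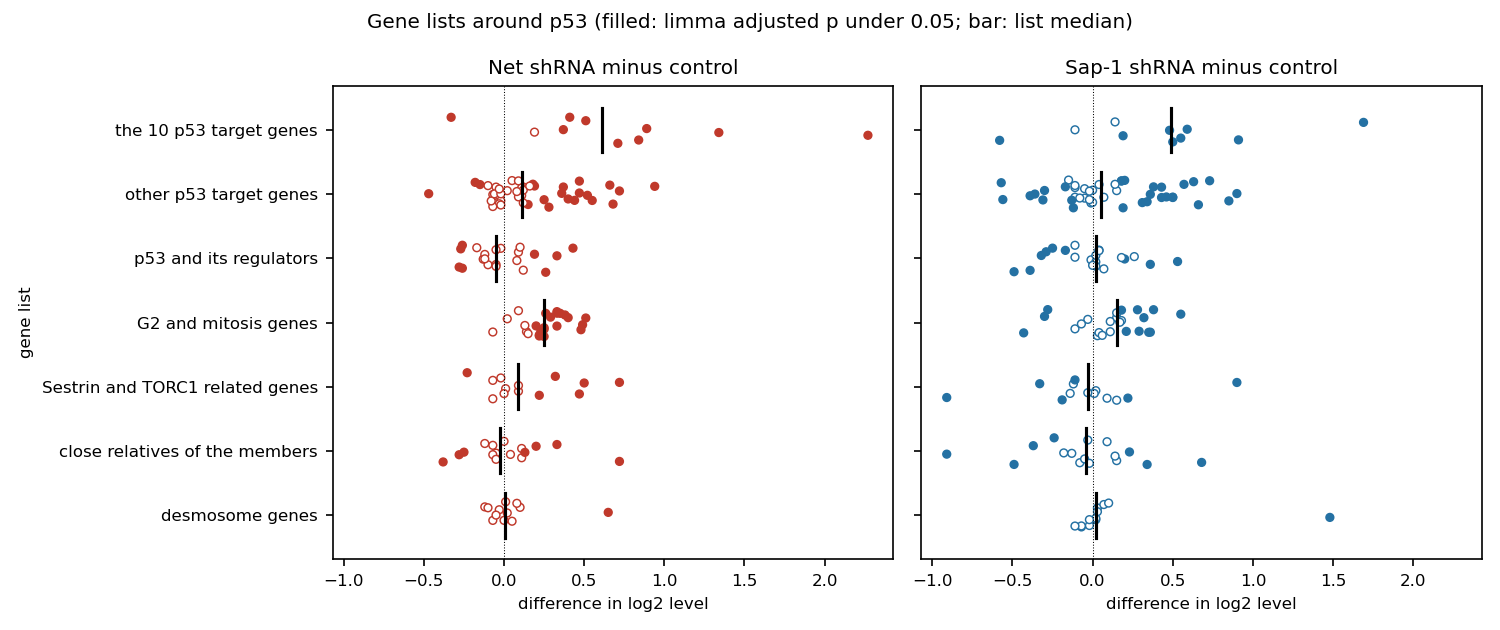
Differences in log2 level of the 10 p53 target genes and of 6 lists around p53, in Net shRNA minus control (left) and Sap-1 shRNA minus control (right), 1 point per gene (filled: limma adjusted p under 0.05; bar: list median). The members' medians of 0.61 and 0.49 lie right of those of the 6 lists drawn, which run from -0.05 to 0.25. Members and lists were chosen with earlier results of these data known, so this contrast carries no test. The EDA and TNF receptor family list, with medians of -0.06 and -0.07, is not drawn.

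Close relatives of the members did not share one direction. Of 16 measured, 4 rose and 3 fell in Net shRNA cultures (median -0.02), and 3 rose and 4 fell in Sap-1 shRNA cultures (median -0.04). The shares of all genes were 13.4% higher and 10.2% lower in Net shRNA cultures, and 15.8% and 13.9% in Sap-1 shRNA cultures. Emp2, a membrane protein gene of the family of Perp, fell by 0.38 in Net shRNA cultures (SE 0.05, limma adjusted p = 0.00022) and rose by 0.68 in Sap-1 shRNA cultures (SE 0.05, adjusted p = 1.6e-06), whereas Perp rose in Net shRNA cultures. Ckap2l, the paralog of Ckap2, differed by 0.25 between the knockdowns, with the Net shRNA higher (SE 0.05, adjusted p = 0.0024), beside 0.30 for Ckap2 itself. Against control cells Ckap2l rose by 0.20 in Net shRNA cultures (SE 0.05, adjusted p = 0.01), beside 0.89 for Ckap2. In Sap-1 shRNA cultures Ckap2l lay at -0.05 (adjusted p = 0.54), whereas Ckap2 rose by 0.59. Zmat5 rose by 0.33 in Net shRNA cultures (SE 0.05, adjusted p = 0.0011).

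Chromosomal neighbours were compared because a difference shared by a region would reach a member too. The median difference of the 50 nearest expressed genes lay between -0.07 and 0.08 around 9 of the 10 members in Net shRNA against control cells, and between -0.08 and 0.05 around all 10 in Sap-1 shRNA against control cells. Around Ckap2 it was 0.23 in Net shRNA cultures. With the neighbours' median taken off, Ckap2 rose by 0.67 in Net shRNA cultures (limma adjusted p = 2.35e-05) and by 0.56 in Sap-1 shRNA cultures (adjusted p = 4.53e-05), and the difference between the knockdowns fell to 0.10 and no longer passed (adjusted p = 0.252). Mdm2 no longer differed by the test between the knockdowns (-0.06, adjusted p = 0.37), and Zmat3 passed in Sap-1 shRNA cultures (0.21, adjusted p = 0.0232).

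**Figure D4:**
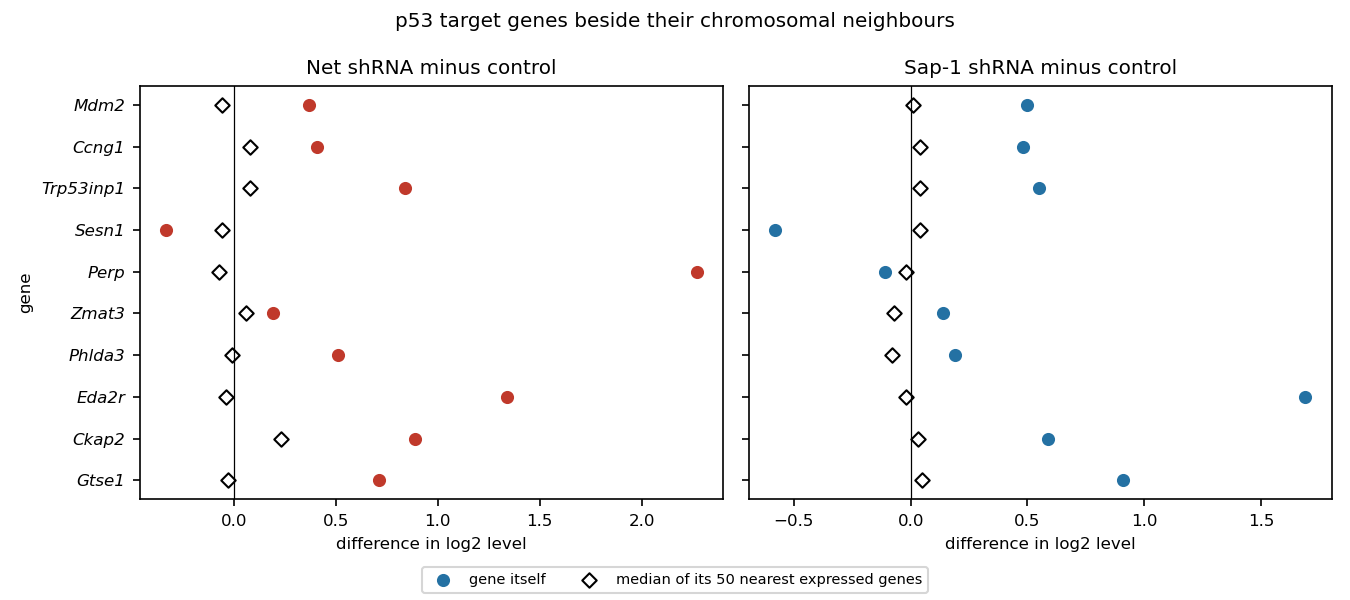
Difference in log2 level of each p53 target gene (filled circle) beside the median of its 50 nearest expressed genes on the chromosome (open diamond), in Net shRNA minus control (left) and Sap-1 shRNA minus control (right). The neighbours of Ckap2 stand at 0.23 in Net shRNA cultures, and all other diamonds lie between -0.08 and 0.08.

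For the members with the widest range of group means, the genes with the most similar levels over the 9 arrays were named among those whose SD over the arrays was at least 0.5 times that of the member. For Perp these were Ptk2b, a focal adhesion family kinase gene (Pearson r = 0.993), the chemokine gene Ccl5 (r = 0.993) and the phosphodiesterase gene Pde7b (r = 0.992), out of 291 genes compared. Ptk2b averaged 8.91 in Net shRNA, 7.55 in Sap-1 shRNA and 7.73 in control cells, high in the Net shRNA group alone like Perp. For Eda2r they were the palmitoyltransferase gene Zdhhc2 (r = 0.997), Dppa2 (r = 0.996) and the stomatin gene Stom (r = 0.993), out of 662 genes. Zdhhc2 averaged 9.57 in Net shRNA, 9.96 in Sap-1 shRNA and 7.85 in control cells. The arrays fall into 3 groups, so these values mostly measure the likeness of group means and carry no test.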

How the data were processed

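Each of 9 cultures gave RNA for an Affymetrix Mouse Gene 1.0 ST array, and groups of 3 follow the titles. The authors deposited 1 log2 level per probe set. For these values the submitters' processing notes name RMA and Affymetrix Expression Console. Version, settings and array genome build are not given in the sources used here. RMA compresses small folds of dim genes and removes a change shared by most genes.

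Of 28815 probe sets, 21780 name a single gene. Symbols were updated through Entrez IDs in a RefSeq table (GRCm38.p6, 21689 matched), and the probe set with the highest mean stood for a gene, leaving 19935. A linear model over all 9 arrays was fitted in R 4.3.3 by lmFit and eBayes of limma 3.58.1, with 6 residual and 4.7 prior degrees of freedom and Benjamini-Hochberg adjustment over all genes, called at an adjusted p under 0.05. The script was tested on simulated data. Intervals use the moderated SE.

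Named were all members, up to 3 called genes of each list per comparison with the smallest adjusted p, p53 regulators fixed by name, the targeted genes, and the 3 genes most like the 2 members with the widest range. Members and lists were chosen with earlier results of these data known, and motifs after the promoters were seen. Deviations of same-numbered arrays correlated from -0.11 to 0.36 (0.17 to 0.36 for replicate 1), and those of differently numbered arrays from -0.43 to 0.3. Replicate numbers were not taken as pairs in the main fit, and these values do not settle whether they are pairs. Alternatives were a replicate block, an intensity trend, only the arrays compared, other normalizations, other probe set filters, neighbours' median taken off, and each array left out. The p-values measure the spread between these cultures only.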

Additional observations from a re-analysis of the deposited data

How the results depend on the processing

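In 19 alternatives (9 of which left out 1 array), 537 of 567 member differences kept their side of the threshold, 19 no longer passed and 11 newly passed. None of the called differences reversed. Differences that did not pass could change sign, such as Zmat3 between the knockdowns (0.05, and -0.07 with the neighbours' median taken off). Members higher and lower in either knockdown than in control stayed at 8 to 9 and 1 for Net shRNA and at 7 to 8 and 1 for Sap-1 shRNA. With dim probe sets left out Perp gave no value, since it was below that limit. The members called lower with the Net than with the Sap-1 shRNA numbered 2. They became 1 after cyclic loess, with every probe set tested and with the neighbours' median taken off. They became 3 with only the 6 arrays compared and with dim probe sets left out, and 1 to 3 with an array left out. With the replicate block, Zmat3 passed in Net shRNA cultures (0.19, adjusted p = 0.0436), Gtse1 passed between the knockdowns (-0.20, adjusted p = 0.0473) and Mdm2 did not (-0.13, adjusted p = 0.0637). Zmat3 also passed in Net shRNA cultures with an intensity trend, quantile normalization or dim probe sets left out (adjusted p = 0.0291 to 0.0485). Regulators lower with the Net than with the Sap-1 shRNA numbered 5, became 3 with only the 6 arrays compared and with the neighbours' median taken off, and 3 to 6 with an array left out (3 without Net shRNA replicate 1 or Sap-1 shRNA replicate 3). G2 and mitosis genes lower in Sap-1 shRNA cultures numbered 3, and 0 with the neighbours' median taken off. Those lower with the Net than with the Sap-1 shRNA numbered 0, and 1 with dim probe sets left out or the neighbours' median taken off. The causes were not tested.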
